A study of Homo sapiens with 6 samples.

Results

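The serpins are a family of protease inhibitors and their relatives. All genes whose symbol in the platform annotation starts with SERPIN were taken, with probe sets of 1 symbol only, which gave 33 genes of the 18132 measured. The family is divided into clades by sequence, and the letter after SERPIN in a symbol is the clade. The genes span all 9 human clades, A to I, with 11 genes in clade A, 12 in clade B, 2 each in clades E, F and I, and 1 each in clades C, D, G and H.

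Serpins share one fold, in which an exposed reactive loop acts as bait for a protease. When the protease cuts the loop, the serpin changes shape and traps the enzyme in a stable complex, so each inhibitor molecule is spent in the act. The liver secretes many of the serpins of blood plasma, among them the main brakes on clotting, on fibrinolysis and on neutrophil elastase. Other members stay inside cells, and a few have lost inhibition and carry hormones or fold collagen instead.

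The 33 genes were read by 65 probe sets. The 5 probe sets annotated to both SERPINB3 and SERPINB4 were kept apart. SERPINA2, SERPINB2 and SERPINB6 are not analysed here. The genes were measured in Huh7, an established cell line from a human hepatocellular carcinoma, in log-phase culture. The groups were 3 arrays of control cells and 3 arrays of cells labelled KCa3.1 silenced, whose genotype label reads KCa3.1 knockdown. KCa3.1 is a calcium-activated potassium channel encoded by KCNN4. The labels do not say how it was silenced, what the control cells received, or whether replicates came from separate cultures. All p-values thus rest on how far these 6 arrays spread, and that spread may be technical only.

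The question is which serpin transcripts differ between cells with and without silencing of the channel. The targeted gene did not bear out the label. KCNN4 read -0.006, 0.126 and -0.073 on the control arrays and -0.055, 0.089 and 0.011 on the silenced-labelled arrays, so the groups overlapped. Its log2 change was -0.00033 (95% interval -0.157 to 0.156, limma adjusted p = 0.999, two-sided exact permutation p = 1 with a smallest possible p of 0.1). Every direction below is therefore between arrays as labelled. Values are log2 RMA values centred near 0 for each probe set, so a value of 0 is a baseline and not absence, and no gene's level can be set against another's. Over all probe sets, r was 0.405 to 0.671 between arrays with the same label and -0.273 to 0.0676 between arrays with opposite labels. In bulk cultures fewer cells of a type and less RNA per cell cannot be told apart.

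In the silenced-labelled arrays 8 of the 33 serpins rose, 7 fell and 18 did not pass the test (limma, adjusted p under 0.05 over all genes). The called share was 45.5%, beside 13.3% of all genes tested. By direction, 8 of 33 compares with a background of 7.14% of all genes higher, and 7 of 33 with 6.19% lower. The largest rises exceeded the largest falls. SERPINI1, which encodes neuroserpin, was 3.95-fold higher, SERPINC1, which encodes antithrombin, 2.95-fold higher and SERPINF2, which encodes alpha-2-antiplasmin, 1.96-fold higher. The largest fall, in SERPINA10, was 1.42-fold. At least 2-fold changes passed in 0.651% of all genes, and among the serpins in SERPINI1 and SERPINC1. The median size of change, whatever its sign, was 0.125 on the log2 scale over the 33 genes and 0.079 over all genes. Control and silenced-labelled values were fully apart for 18 of the 33 serpins (54.5%), against 29.3% of all genes. The count of lower serpins was 4 without control replicate 2 and 4 without silenced replicate 2, and that of higher serpins stayed between 7 and 8 as each array was left out.

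**Figure D1:**
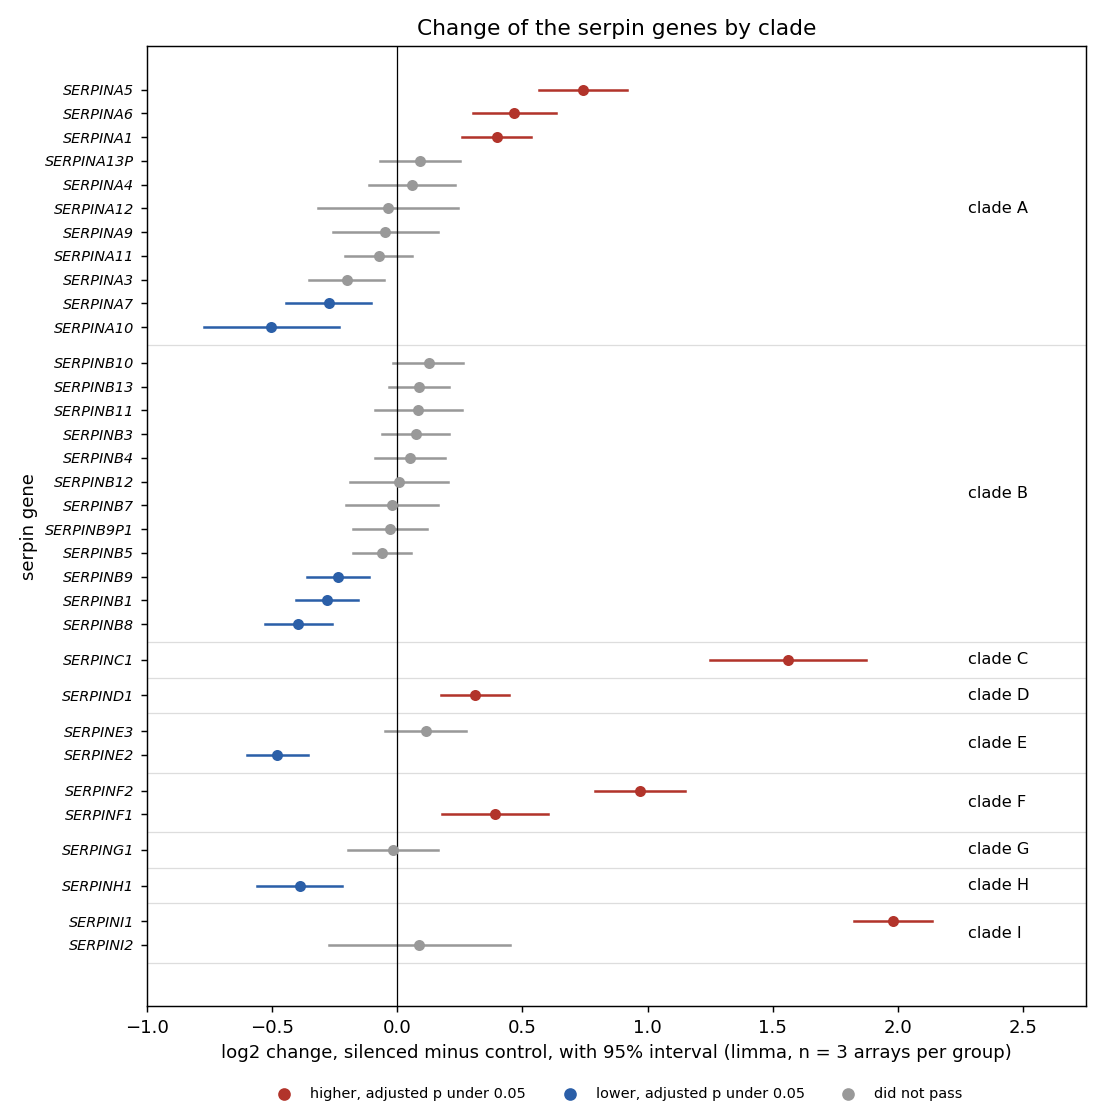
Log2 change of each of the 33 serpin genes, silenced-labelled minus control, grouped by clade. Points are limma estimates from 3 arrays per group, lines are 95% intervals, and colour marks genes past the threshold. SERPINI1 at 1.98 and SERPINC1 at 1.56 lie far to the right, and the 3 called genes of clade B all lie to the left of 0.

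**Figure D2:**
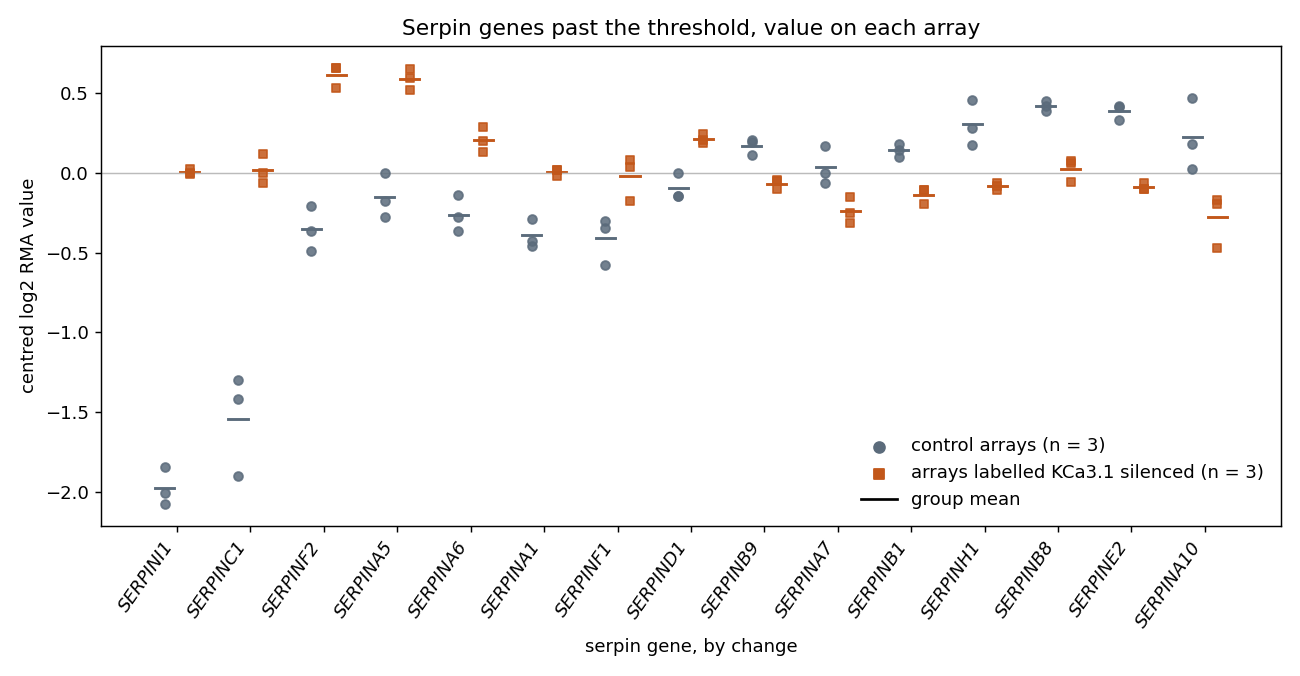
Centred log2 RMA value of the 15 called serpin genes on each of the 3 control arrays (circles) and 3 silenced-labelled arrays (squares), with group means as bars. In every one of these 15 genes the groups do not overlap.

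The 4 clotting inhibitors described first did not move together. Antithrombin inhibits thrombin and factor Xa with heparin as cofactor. SERPINC1 (Entrez gene 462) read -1.903, -1.421 and -1.301 on the control arrays and 0, -0.063 and 0.12 on the silenced-labelled arrays. All 3 control arrays were far below the silenced-labelled ones, and control replicate 1 was the lowest. The means were -1.542 ± 0.318 and 0.019 ± 0.093 (SD, n = 3 each). The log2 change was 1.56 (SE 0.138, limma adjusted p = 0.00014), and it lay between 1.38 and 1.68 under the alternatives tried. SERPIND1 encodes heparin cofactor II, which inhibits thrombin bound to dermatan sulfate or heparin. It read -0.144, 0.001 and -0.147 in control and 0.189, 0.245 and 0.205 in silenced-labelled arrays. The groups were close within themselves and apart from each other, with a rise of 0.31 (SE 0.06, limma adjusted p = 0.0094).

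SERPINA5 encodes protein C inhibitor, which acts on activated protein C and on urokinase. Its values were -0.276, 0 and -0.178 in control and 0.521, 0.656 and 0.597 in silenced-labelled arrays. The silenced-labelled arrays were all higher, and the change was 0.74 (SE 0.078, limma adjusted p = 0.00036). SERPINA10 went the other way. It encodes the protein Z-dependent inhibitor of factor Xa. It read 0.028, 0.468 and 0.181 in control and -0.172, -0.468 and -0.194 in silenced-labelled arrays. The groups did not overlap, but replicate 2 was the most extreme array on each side. SERPINA10 fell by 0.50 in log2 units (SE 0.119, limma adjusted p = 0.023). It no longer passed when control replicate 2 was left out (change -0.382, limma adjusted p = 0.063), nor without control replicate 3 (limma adjusted p = 0.06) or silenced replicate 2 (limma adjusted p = 0.079).

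SERPINF2 and SERPINI1 were higher and SERPINE2 was lower. Their products act on plasmin or plasminogen activators, as does that of SERPINA5, given above, which was higher. Alpha-2-antiplasmin, the product of SERPINF2 (Entrez gene 5345), is the main inhibitor of plasmin in blood. SERPINF2 read -0.364, -0.205 and -0.49 in control and 0.661, 0.535 and 0.659 in silenced-labelled arrays. The groups were widely separated, with means of -0.353 ± 0.143 and 0.618 ± 0.072 (SD, n = 3 each). The change was 0.97 (SE 0.079, limma adjusted p = 9.3e-05), with 1.035 and 0.907 from its 2 probe sets.

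Neuroserpin inhibits tissue plasminogen activator and is best known from neurons. SERPINI1 (Entrez gene 5274) read -1.842, -2.076 and -2.006 on the control arrays and 0.027, -0.005 and 0 on the silenced-labelled arrays. Both groups were tight and lay far apart, and by size this change ranked 8 among all 18132 genes. The means were -1.974 ± 0.120 and 0.007 ± 0.017 (SD, n = 3 each). The rise was 1.98 (SE 0.068, 95% interval 1.83 to 2.14, limma adjusted p = 8e-07). It lay between 1.90 and 2.05 under the alternatives. Adjusted p-values ran from 2.4e-07 (limma with array weights) to 0.0047 (ordinary least squares without moderation). SERPINI1 and SERPINC1 each rest on 1 probe set, so neither rise has a second probe set to set beside it.

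SERPINE2 encodes protease nexin 1, a cell-surface and matrix inhibitor of thrombin and urokinase. It read 0.331, 0.423 and 0.417 in control and -0.103, -0.1 and -0.063 in silenced-labelled arrays. All control arrays were higher, and SERPINE2 fell by 0.48 in log2 units (SE 0.054, limma adjusted p = 0.00052). Its 6 probe sets gave changes from -0.641 to -0.184, and 5 of them passed over all probe sets. SERPINE3, the other measured gene of clade E and little characterised, read 0.091, 0 and -0.014 in control and 0.052, 0.093 and 0.275 in silenced-labelled arrays. These overlapped, with a change of 0.11 (95% interval -0.047 to 0.276).

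Of the secreted serpins SERPINA1, SERPINA3, SERPINA4 and SERPING1, SERPINA1 rose and the others did not pass. SERPINA1 encodes alpha-1-antitrypsin, the main plasma inhibitor of neutrophil elastase. It read -0.425, -0.289 and -0.459 in control and 0.021, -0.02 and 0.018 in silenced-labelled arrays. The silenced-labelled arrays lay within a narrow band above all control arrays. The rise was 0.40 (SE 0.061, limma adjusted p = 0.0029), and all 4 probe sets passed, with changes from 0.336 to 0.519. SERPINA3 encodes alpha-1-antichymotrypsin, an acute-phase inhibitor of cathepsin G. It read 0.28, 0.239 and 0.07 in control and -0.023, -0.016 and 0.023 in silenced-labelled arrays. The groups did not overlap, but control replicate 3 was near the silenced-labelled arrays, and the change of -0.20 did not pass (SE 0.066, limma adjusted p = 0.087). Without that array it was -0.265 and passed (limma adjusted p = 0.034). Its 2 probe sets gave -0.347 and -0.056. SERPING1, the gene of C1 inhibitor, had a change of -0.02 (95% interval -0.197 to 0.164). SERPINA4, the gene of kallistatin, which inhibits tissue kallikrein, had a change of 0.06 (95% interval -0.114 to 0.232). For both, the values of the groups overlapped.

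The 5 serpins known not to inhibit proteases comprised 2 higher genes, 2 lower genes and SERPINB5, and the 2 hormone carriers moved in opposite directions. SERPINA6 encodes corticosteroid-binding globulin, which carries cortisol in blood. It read -0.365, -0.138 and -0.278 in control and 0.2, 0.134 and 0.291 in silenced-labelled arrays. All silenced-labelled arrays were higher, and the rise was 0.47 (SE 0.073, limma adjusted p = 0.0031). SERPINA7 encodes thyroxine-binding globulin, which carries thyroid hormone. It read -0.063, 0.169 and 0 in control and -0.249, -0.152 and -0.314 in silenced-labelled arrays. The groups did not overlap, though the gap was small, and SERPINA7 fell by 0.27 (SE 0.075, limma adjusted p = 0.043). That call lay close to the threshold. It was lost without control replicate 2 or 3 and without any of the 3 silenced replicates (limma adjusted p from 0.053 to 0.15), and its 1 probe set did not pass over all probe sets (limma adjusted p = 0.073).

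SERPINF1 encodes pigment epithelium-derived factor, a secreted protein that opposes blood vessel growth. It read -0.577, -0.304 and -0.348 in control and 0.085, -0.178 and 0.035 in silenced-labelled arrays. The spread was wide in each group, but the groups did not overlap. The rise was 0.39 (SE 0.093, limma adjusted p = 0.024), and it did not pass without control replicate 1 or 3 or without silenced replicate 1 or 3 (limma adjusted p from 0.051 to 0.086). SERPINH1 encodes HSP47, a chaperone of the endoplasmic reticulum that folds procollagen. It read 0.283, 0.458 and 0.177 in control and -0.063, -0.107 and -0.079 in silenced-labelled arrays. All control arrays were higher, with a fall by 0.39 in log2 units (SE 0.075, limma adjusted p = 0.0086). Its 3 probe sets gave nearly the same value, from -0.397 to -0.378. SERPINB5, the gene of maspin, read 0.058, 0.016 and 0.031 against -0.046, -0.024 and -0.006. Its groups did not overlap, yet the difference was small at -0.06 and did not pass (limma adjusted p = 0.56).

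Clade B holds serpins that mostly stay inside the cell and guard it against its own or leaked proteases. Among its 12 measured genes limma called 3 lower and 0 higher, also at an unadjusted p under 0.05, and 9 did not pass. The called share was 25%, beside 13.3% of all genes tested, and 6.19% of all genes were lower. SERPINB8 encodes an inhibitor of furin and trypsin-like proteases. It read 0.455, 0.391 and 0.422 in control and -0.059, 0.077 and 0.064 in silenced-labelled arrays. All control arrays were higher, and it fell by 0.40 in log2 units (SE 0.059, limma adjusted p = 0.0024). Of its 4 probe sets 3 passed, with changes of -0.689, -0.475 and -0.472, and the fourth gave 0.057 (95% interval -0.226 to 0.339).

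SERPINB1 encodes an inhibitor of the neutrophil proteases elastase and cathepsin G. It read 0.102, 0.146 and 0.185 in control and -0.193, -0.107 and -0.108 in silenced-labelled arrays. The groups lay clearly apart, and SERPINB1 fell by 0.28 (SE 0.055, limma adjusted p = 0.0099). SERPINB9 encodes the inhibitor of granzyme B, which protects cells from the contents of cytotoxic granules. It read 0.111, 0.208 and 0.192 in control and -0.051, -0.046 and -0.102 in silenced-labelled arrays. It fell by 0.24 (SE 0.055, limma adjusted p = 0.021). The call of SERPINB9 was lost without control replicate 2 or 3 or without any of the silenced replicates (limma adjusted p from 0.054 to 0.095). Its 4 probe sets gave -0.43, -0.324, -0.187 and -0.004, of which the first 2 passed.

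The other clade B genes had changes between -0.06 and 0.12, each with an interval that includes 0. They were SERPINB3, SERPINB4, SERPINB5, SERPINB7, SERPINB10, SERPINB11, SERPINB12, SERPINB13 and the pseudogene SERPINB9P1. SERPINB3 and SERPINB4, the squamous cell carcinoma antigens, are near-identical neighbours, so their values (0.07 and 0.05) are uncertain. The 5 probe sets shared by both gave changes from -0.184 to 0.069 and none passed (0 of 5, also 0 at an unadjusted p under 0.05). SERPINB4 was exactly 0 on 4 of the 6 arrays. In SERPINB7, the gene of megsin, the 2 probe sets gave 0.153 and -0.195, and their mean was -0.02. SERPINB13, the gene of headpin, did not overlap between groups but differed by 0.09 (limma adjusted p = 0.37).

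The remaining genes were SERPINA9, SERPINA11, SERPINA12 and the pseudogene SERPINA13P of clade A, and SERPINI2 of clade I. None of them passed, with changes of -0.05, -0.07, -0.04, 0.09 and 0.09, and the values of the groups overlapped in each. SERPINA12 encodes vaspin and SERPINI2 encodes pancpin. The interval of SERPINI2 was the widest of all 33 genes, from -0.273 to 0.451, with values of -0.111, 0.408 and -0.188 against 0, 0.376 and 0. Replicate 2 was the high array in each group.

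The calls of the clades are set side by side as a description, since members of a clade are not replicates. Over all genes 7.14% were higher and 6.19% lower. Clade A had 3 higher and 2 lower of 11 genes, with a median change of -0.04 and a range from -0.504 to 0.742. The count called in clade A was 3 without control replicate 2 and 3 without silenced replicate 2. Clade B had 0 higher and 3 lower of 12, with a median of -0.01 and a range from -0.395 to 0.125. Both genes of clade F were higher. Clades C and D, each with 1 gene, were higher and clade H, with 1 gene, was lower. Clades E and I had 1 called gene of 2 each, lower in E and higher in I, and the 1 gene of clade G did not pass. Across the 20 genes of the secreted clades A, C, D, E, F, G and I, 8 were higher and 3 lower, with a median of 0.09. The median over all 18132 genes was -0.01. By role, 6 of the 23 inhibitors were higher and 5 lower. Both pseudogenes and the 3 genes of unsettled role did not pass.

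Of the 65 probe sets 14 were higher, 15 lower and 36 did not pass, a called share of 44.6% beside 10.7% of all probe sets. With all arrays 29 were called, and leaving out silenced replicate 2 or 3 left 19 or 17. No serpin gene had called probe sets in both directions. For SERPINA1, SERPIND1, SERPINF2 and SERPINH1 every probe set passed, with 4, 2, 2 and 3 probe sets. SERPINF1 had 2 of 5 and SERPINA10 1 of 2 past the threshold, with all changes on the same side of 0. The widest disagreement was in SERPINB8, whose probe sets spanned -0.689 to 0.057.

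**Figure D3:**
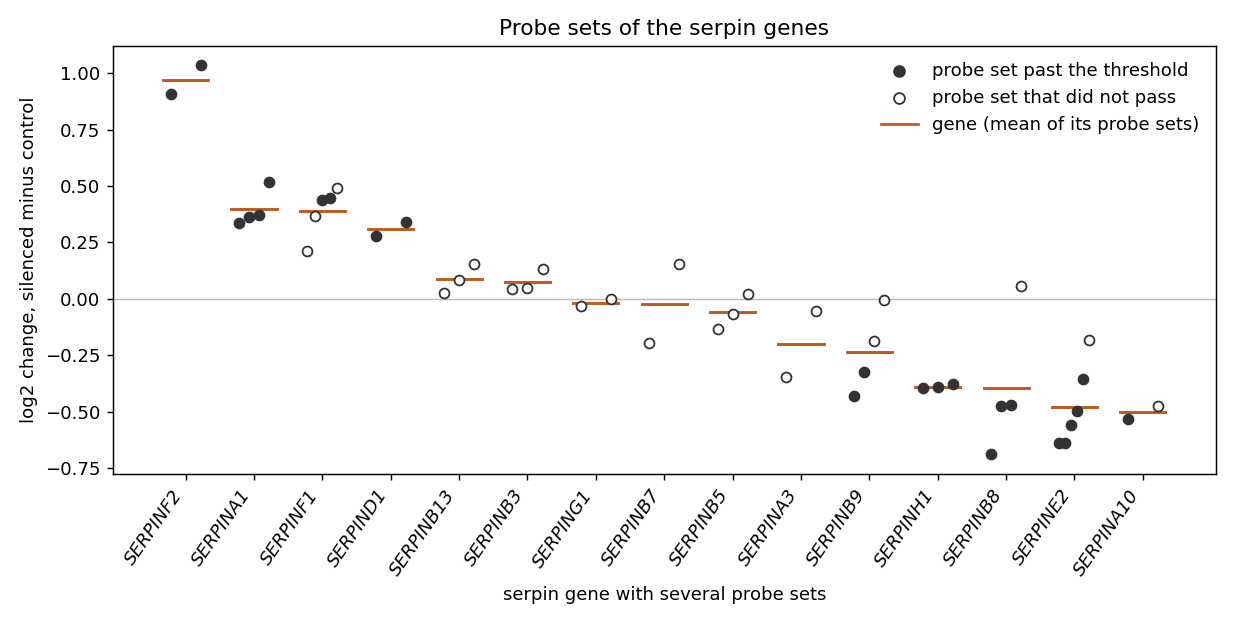
Log2 change of each probe set of the 15 serpin genes read by several probe sets, with filled points past the threshold and the gene's mean as a bar. The 3 probe sets of SERPINH1 coincide, while SERPINB8 and SERPINB9 have probe sets near 0 beside ones well below it.

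Many serpin genes sit in clusters, and the called genes of a cluster had mixed directions on chromosome 14 and the same direction on chromosomes 6 and 17. Gene order was taken from RefSeq (assembly GRCh38.p14). On chromosome 14 SERPINA10, which fell, lies next to SERPINA6, which rose, and SERPINA1, which rose, follows with SERPINA2 in between. SERPINA11, SERPINA9, SERPINA12 and SERPINA4 did not pass, SERPINA5 rose, and SERPINA3 and SERPINA13P did not pass. On chromosome 18, 8 of the 9 measured clade B genes did not pass, and SERPINB8, at the end of the row, fell. On chromosome 6 SERPINB1 and SERPINB9 both fell and the pseudogene between them, SERPINB9P1, had a change of -0.03. On chromosome 17 the neighbours SERPINF2 and SERPINF1 both rose, by 0.97 and 0.39.

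**Figure D4:**
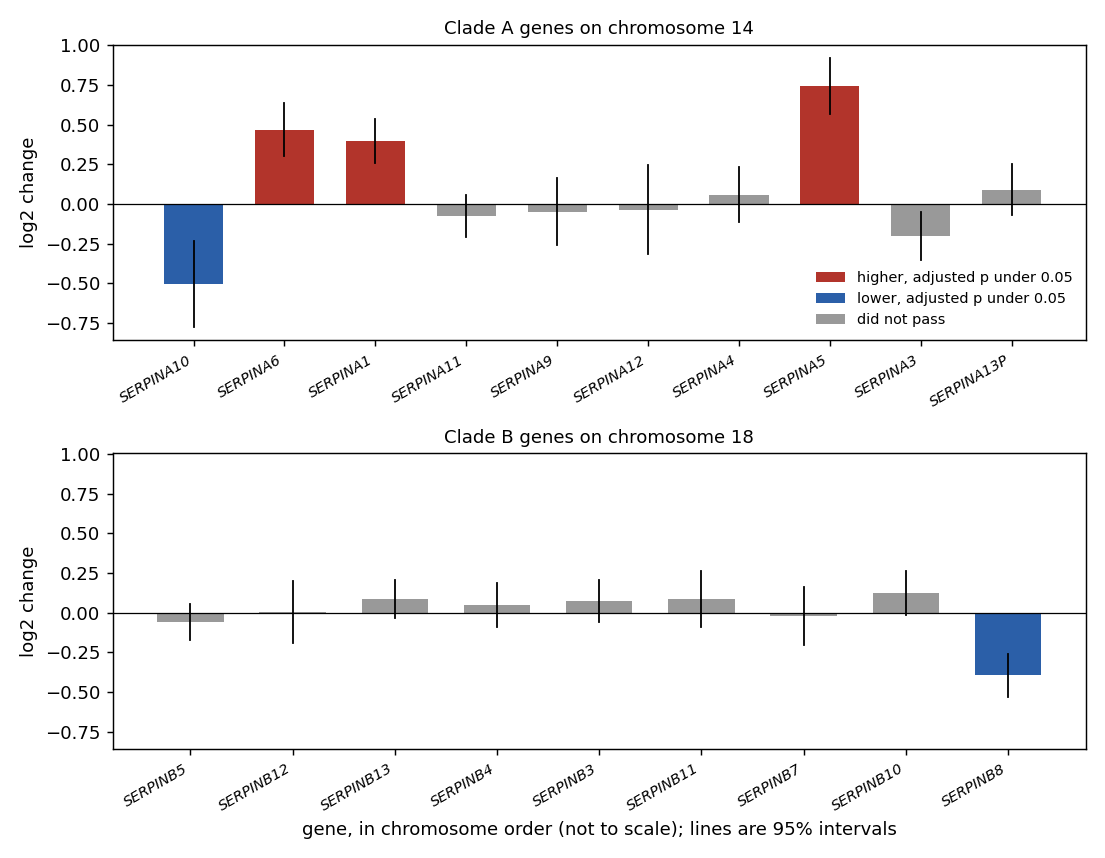
Log2 change, silenced-labelled minus control, of the clade A genes on chromosome 14 and the clade B genes on chromosome 18, in chromosome order and not to scale. Bars are limma estimates (n = 3 arrays per group) and lines 95% intervals. Called genes of opposite sign stand side by side at the left end of the chromosome 14 row, and SERPINB8 is the called gene of the chromosome 18 row.

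The protein-coding genes next to the 15 called serpins, leaving out serpins under any symbol, were also read. Of 17 such neighbours, all of them measured, 0 passed the test in limma, while 4 had an unadjusted p under 0.05, and their changes ran from -0.156 to 0.242. The background of called genes is 13.3%. PDCD10, which encodes a scaffold protein of vascular integrity, lies head to head with SERPINI1, with start sites 829 and 1234 bases apart on opposite strands in the RefSeq promoter table, which lists 2 for PDCD10. Its change was -0.04 (limma adjusted p = 0.86), beside 1.98 for SERPINI1. GOLIM4, on the other side of SERPINI1, had the largest change of these neighbours, 0.242. It had an unadjusted limma p of 0.017 and did not pass (limma adjusted p = 0.098). Next to SERPINC1, ZBTB37 had a change of -0.02 and RC3H1 one of 0.15, and neither passed. The window at the start of SERPINI1, the most changed serpin, is shown for its sequence. It runs from 250 bases before to 50 bases after the start (chr3:167735471-167735770, GRCh38.p14, plus strand, from RefSeq) and holds none of the 5 motifs searched below.
SERPINI1: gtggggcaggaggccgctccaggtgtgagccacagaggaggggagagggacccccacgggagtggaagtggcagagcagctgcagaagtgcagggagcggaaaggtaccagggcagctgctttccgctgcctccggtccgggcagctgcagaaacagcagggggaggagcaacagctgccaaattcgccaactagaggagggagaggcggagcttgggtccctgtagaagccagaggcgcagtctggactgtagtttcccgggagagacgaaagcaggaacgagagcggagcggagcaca

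Promoter windows of the same kind were found for 25 of the 33 genes, 36 windows in all. The genes without one were SERPINA13P, SERPINB9P1, SERPINB10, SERPINB11, SERPINC1, SERPINF1, SERPINF2 and SERPING1. The windows were searched on both strands. GTTAAT is the core of the site of HNF1, a hepatocyte transcription factor, and TGANTCA is the site of AP-1. The C/EBP factors were given the letters TTGCNNCAA and also the form TTGCNCAA. The heat shock element was given GAANNTTC and TATAAA is the TATA box. The letters GTTAAT were in 7 of 36 serpin windows (19.4%) and in 6.9% of all 35116 windows. They were in 5 of 10 clade A genes with a window and in 1 of 9 of clade B. TGANTCA was in 22.2% of serpin windows and 7.7% of all, with 0 of 10 clade A genes and 5 of 9 clade B genes. The C/EBP letters were in 11.1% against 4.5%, GAANNTTC in 13.9% against 6.8%, and TATAAA in 25% against 11.5%. Matches are letters in a window, not shown to be bound.

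The 7 genes with GTTAAT comprised 2 higher genes (SERPINA1 and SERPINA6), 2 lower genes (SERPINA7 and SERPINA10) and 3 that did not pass (SERPINA4, SERPINB12 and SERPINI2). The letters were thus present in genes of both directions. The windows of the 4 called genes are given with GTTAAT or its reverse complement ATTAAC in capitals. They are chr14:94388553-94388852, chr14:94323287-94323586, chrX:106038678-106038977 and chr14:94293219-94293518 (GRCh38.p14, all on the minus strand, from RefSeq, 5′ to 3′). SERPINA1 and SERPINA10 have 2 windows each, and the one with the match is shown.
SERPINA1: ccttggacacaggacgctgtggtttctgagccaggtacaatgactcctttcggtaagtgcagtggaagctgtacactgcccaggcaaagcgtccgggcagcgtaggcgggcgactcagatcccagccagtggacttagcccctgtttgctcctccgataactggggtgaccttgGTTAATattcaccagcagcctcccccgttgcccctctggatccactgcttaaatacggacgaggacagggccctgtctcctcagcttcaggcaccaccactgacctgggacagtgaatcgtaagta
SERPINA6: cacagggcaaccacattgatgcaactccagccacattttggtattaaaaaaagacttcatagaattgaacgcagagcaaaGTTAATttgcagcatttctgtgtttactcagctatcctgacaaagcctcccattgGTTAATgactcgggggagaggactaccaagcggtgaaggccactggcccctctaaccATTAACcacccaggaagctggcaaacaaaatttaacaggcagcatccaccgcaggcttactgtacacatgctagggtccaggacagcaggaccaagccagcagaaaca
SERPINA7: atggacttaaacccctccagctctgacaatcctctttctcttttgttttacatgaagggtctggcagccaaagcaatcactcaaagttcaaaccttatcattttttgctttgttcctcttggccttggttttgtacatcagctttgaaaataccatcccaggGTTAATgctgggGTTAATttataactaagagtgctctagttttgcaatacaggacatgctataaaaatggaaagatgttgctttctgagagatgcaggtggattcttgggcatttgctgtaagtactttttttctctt
SERPINA10: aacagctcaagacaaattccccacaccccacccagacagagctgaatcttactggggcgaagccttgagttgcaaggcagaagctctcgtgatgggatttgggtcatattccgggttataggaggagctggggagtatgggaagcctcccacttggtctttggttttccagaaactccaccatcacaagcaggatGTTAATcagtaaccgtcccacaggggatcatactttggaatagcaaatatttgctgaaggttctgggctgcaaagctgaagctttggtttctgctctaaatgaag
SERPINA1 held the letters at position -76 from the start site and SERPINA10 at -55. SERPINA6 held them at -170, -115 and -58, and SERPINA7 at -88 and -76. In SERPINA7 the last base of the match at -76 is also the first base of a TATAAA match on the other strand at -71.

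The heat shock element letters were in the windows of SERPINH1, SERPINA10, SERPINA11 and SERPINB7. SERPINH1 is a known heat shock gene. It has 2 windows, and the one with the match, chr11:75562003-75562302 (GRCh38.p14, plus strand, from RefSeq), is shown with GAANNTTC in capitals, at position -71.
SERPINH1: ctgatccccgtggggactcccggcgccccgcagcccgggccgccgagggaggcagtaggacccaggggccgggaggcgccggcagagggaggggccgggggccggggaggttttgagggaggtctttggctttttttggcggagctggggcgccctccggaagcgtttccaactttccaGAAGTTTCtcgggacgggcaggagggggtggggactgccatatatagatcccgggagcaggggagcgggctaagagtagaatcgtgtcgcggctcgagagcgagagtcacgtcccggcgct

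The genes around the serpins were grouped into 16 lists of target proteases, cofactors, receptors and regulators, chosen with earlier results of these data known. Of 158 listed genes 148 were measured, and 24 were higher and 23 lower, a called share of 31.8% beside the background of 13.3%. The cysteine proteases, which several clade B serpins inhibit, had 0 higher and 5 lower of 9, also at an unadjusted p under 0.05, with a median change of -0.23. CTSS, which encodes the lysosomal protease cathepsin S, read 0.181, 0.357 and 0.305 in control and -0.239, -0.297 and -0.202 in silenced-labelled arrays. It fell by 0.53 in log2 units (SE 0.063, limma adjusted p = 0.00074). CASP8, the initiator caspase of death receptors, fell by 0.30, and CTSL, the gene of cathepsin L, fell by 0.29. A link between these falls and those of SERPINB1, SERPINB8 and SERPINB9 was not tested.

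Of the 8 coagulation proteases F2, the prothrombin gene whose product antithrombin and heparin cofactor II inhibit, fell by 0.32 in log2 units (SE 0.066, limma adjusted p = 0.012). The other 7 did not pass, so the called share was 12.5%, below the 13.3% of all genes. Of 11 coagulation cofactors and zymogen partners 5 were higher and 1 lower (54.5% called). F13B, a factor XIII subunit, rose by 1.07 and FGG, the fibrinogen gamma chain gene, by 0.99, while F3, the tissue factor gene, fell by 0.56. In the plasminogen system 2 of 8 were higher and 3 lower (62.5% called). PLAU, which encodes urokinase, rose by 0.55. S100A10, a plasminogen-binding subunit, fell by 0.67 and VTN, the vitronectin gene, fell by 0.46. PLAT, which encodes the tissue plasminogen activator that neuroserpin inhibits, read 0.078, 0.185 and -0.013 in control and -0.299, -0.245 and -0.178 in silenced-labelled arrays. It fell by 0.32 (SE 0.067, limma adjusted p = 0.013), opposite in sign to SERPINI1. PLAT was named after its value was seen.

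Of the 4 complement proteases that C1 inhibitor blocks, MASP1 rose by 0.27 (25% called, beside 13.3% of all genes). C1R, C1S and MASP2 had changes of 0.12, 0.07 and -0.04, which did not pass. No leukocyte or mast cell protease passed (0 of 6, also 0 at an unadjusted p under 0.05, limma). Among 9 membrane serine proteases DPP4 fell by 0.31, and among 13 kallikreins and trypsins PRSS3, a trypsinogen gene, rose by 0.31. The called shares of these lists were 11.1% and 7.69%, below the 13.3% of all genes. Serpin complexes are cleared by receptors of the LDL receptor family. Of 8 measured clearance receptors (12.5% called) VLDLR was lower, by a change of -0.60 (SE 0.066, limma adjusted p = 0.00044). Heparan sulfate is the cofactor of antithrombin on cell surfaces. Of 12 genes of its core proteins and enzymes 5 were higher and 1 lower (50% called). The syndecan gene SDC1 rose by 0.76 and SDC2 fell by 0.72, and HS3ST3B1, a sulfotransferase gene, rose by 0.53.

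Of 12 genes for folding and disposal of secreted proteins FKBP10, a collagen prolyl isomerase gene, fell by 0.56 and the others did not pass. The called share was 8.33%, below the 13.3% of all genes. Of 12 procollagens and their enzymes, the clients and partners of HSP47, 2 were higher and 2 lower (33.3% called). COL1A2 and COL5A2 rose by 0.55 and 0.39, and P4HA2 and P4HB, of prolyl 4-hydroxylase, fell by 0.44 and by 0.27. P4HB was named after its value was seen. Protease inhibitors outside the family had 3 higher and 6 lower of 20 (45% called). A2M, the gene of the broad inhibitor alpha-2-macroglobulin, rose by 2.16. SPINK1, a trypsin inhibitor gene, rose by 1.30, and CSTA, which encodes the cathepsin inhibitor cystatin A, fell by 1.25. AGT, which encodes angiotensinogen, is a clade A serpin without a SERPIN symbol. It read -0.488, -0.293 and -0.478 in control and 0.049, 0.032 and 0.112 in silenced-labelled arrays. It rose by 0.48 (SE 0.067, limma adjusted p = 0.0017). HMSD, a serpin-domain gene next to SERPINB8 that also lacks a SERPIN symbol, had a change of -0.04 that did not pass.

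Among the partners of the hormone carriers, THRB, a thyroid hormone receptor gene, rose by 0.64 and NR3C1, the glucocorticoid receptor gene, fell by 0.57. Of 12 listed liver transcription factors that act on serpin genes 8 had values here, and no HNF1 gene was among the 8. Of these 8, 3 were higher and 0 lower (0 lower also at an unadjusted p under 0.05), with a median change of 0.19. The called share was 37.5%, beside 13.3% of all genes. FOXA1 rose by 0.66, CEBPD by 0.54 and FOXA3 by 0.41.

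**Figure D5:**
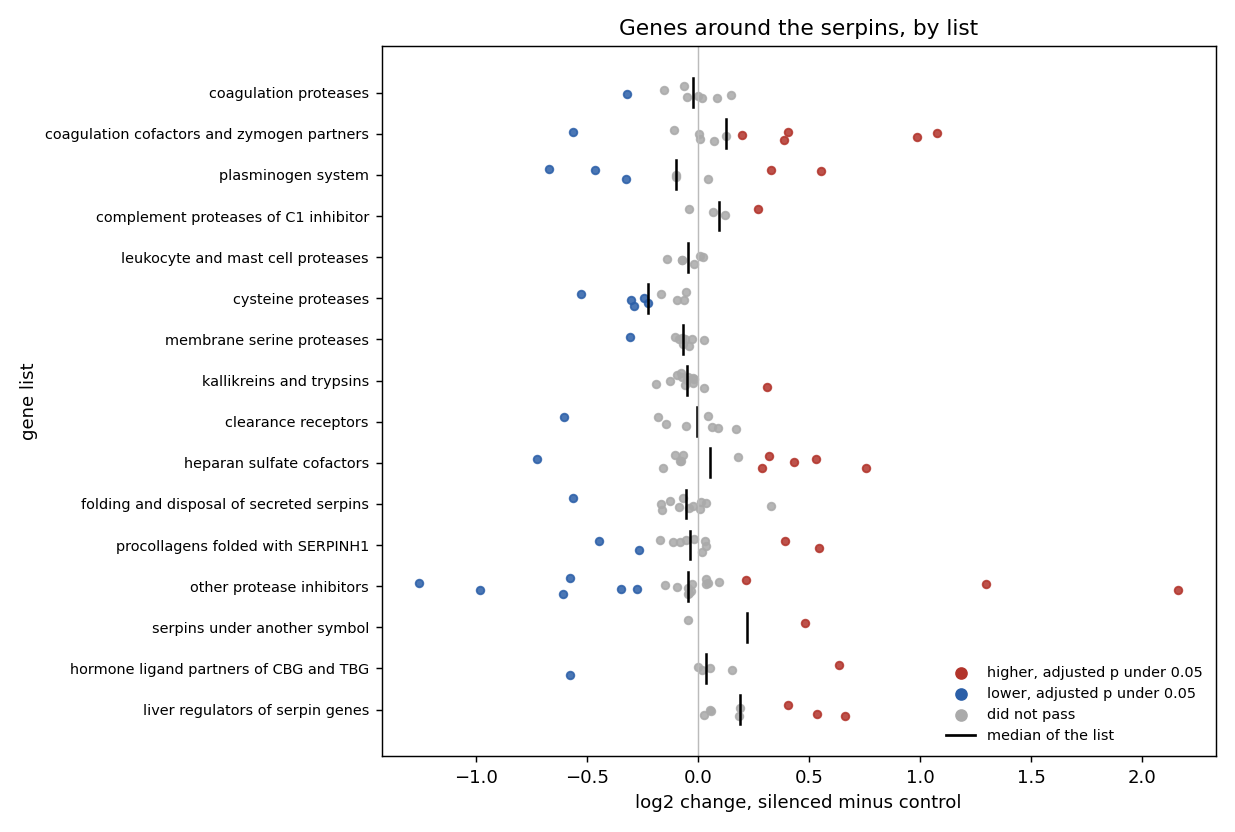
Log2 change, silenced-labelled minus control, of the measured genes of 16 lists of serpin targets, cofactors and regulators, 1 point per gene with vertical jitter and a line at each list's median. The cysteine proteases all lie below 0, and A2M at 2.16 is the point farthest to the right.

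Markers of liver cell types moved in the same arrays, where 7.14% of all genes were higher and 6.19% lower. Of 7 measured hepatocyte markers 4 were higher and 0 lower (1 lower at an unadjusted p under 0.05, limma). APOA1, an apolipoprotein gene, rose by 1.14, AFP, the gene of alpha-fetoprotein, by 0.70, APOB by 0.38 and FGB by 0.197. ALB and TTR had changes of 0.155 and 0.056 that did not pass. TF went the other way, at -0.192, and did not pass (limma adjusted p = 0.075). The mean of the list ran from -0.236 to -0.18 over the control arrays and from 0.145 to 0.149 over the silenced-labelled arrays. All 4 markers of bile duct cells were lower, with the keratin gene KRT19 at -0.50 and the adhesion gene EPCAM at -0.46. Their mean ran from 0.122 to 0.27 in control and from -0.266 to -0.143 in silenced-labelled arrays. No endothelial (0 of 5), stromal (0 of 5) or leukocyte (0 of 4) marker passed in limma, and at an unadjusted p under 0.05 these counts were 0, 0 and 1. Centred values do not show which markers are at 0. The part of these marker shifts in the serpin changes was not tested.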

How the data were processed

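Total RNA of Huh7 cells was extracted with Trizol and labelled with biotin, per the labels' protocols. RMA (version not given) produced the log2 values that the authors deposited, per the submitters' processing notes. They lie near 0, with every array's median at 0 and an exact 0 on 1 or more arrays in 80.6% of probe sets, so each probe set was centred by a step that is not given in the sources used here. The log base is RMA's usual one. Centring cancels in differences but removes levels. Of 49395 probe sets 102 were controls, 44988 had 1 gene symbol in the platform annotation, 1832 several and 2473 none here.

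Probe sets with 1 symbol were averaged per gene. Groups were compared with limma 3.58.1 in R 4.3.3 (lmFit, eBayes, group as the only term, all 6 arrays), two-sided, with Benjamini-Hochberg adjustment over all 18132 genes and a threshold of 0.05. Probe sets were fitted likewise. All p-values are limma's unless named otherwise. The number of arrays, 3 per group, limits the precision. The code was tested on simulated data. Same-numbered arrays did not deviate together from their group means (r from -0.096 to -0.04), so the numbers were not used as pairs. Some arrays with different numbers did. For control replicates 1, 2 and 3 with silenced replicates 2, 3 and 1, in that order, r was 0.373, 0.381 and 0.381. The remaining pairs had r from -0.379 to -0.249. The labels do not say what these arrays shared, and no fit used that matching. Every serpin gene is named, and of each list the 3 largest changes past the threshold, and all members of lists of 5 or fewer, except where the text says otherwise. The members and lists were chosen with earlier results of these data known. One gene list is not reported here.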

Additional observations from a re-analysis of the deposited data

How the results depend on the processing

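Each of 16 alternatives was run: the median or the most variable probe set, probe sets whose IDs have no _s, _x or _a mark, leaving out probe sets at 0 on 3 or more arrays, quantile normalization, mean-centred arrays, robust eBayes, no moderation, array weights, the replicate block and leaving out each array. No serpin gene past the threshold changed sign, and 7 of the 15 passed in every alternative that gave a value. Of the genes that did not pass, 10 changed sign at least once. With unmarked probe sets only, 13 serpin genes could be tested, of which 3 were higher and 0 lower, 1 of them called in clade A and 0 in clade B. Called genes of the lists were then 12, against 47 in the setting of the report, and of the whole array 570, with fewer genes tested. Without moderation 5 serpins were higher and 4 lower, 2 were called in clade A, 28 in the lists and 1289 over all genes. That setting keeps every log2 change (SERPINA10 -0.504 in both) and tests it with each gene's own variance. Leaving out 1 array gave 7 to 8 higher and 4 to 7 lower serpins, 3 to 5 called in clade A, 2 to 3 in clade B and 17 to 25 called serpin probe sets. With the replicate block 8 serpins were higher and 6 lower, and the call of SERPINB9 was lost (limma adjusted p = 0.06). The change of KCNN4 ran from -0.0445 to 0.0548 and never passed. Signal over background is unknown for centred values.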
